A study of Gallus gallus with 4 samples.

Results

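FBXO32 (gene ID ENSGALG00000016369) and KLHL38 (ENSGALG00000016368) are neighbouring protein-coding genes on chicken chromosome 2. Their RNA was measured in breast muscle of slow-growing Xinghua (XH) and fast-growing Recessive White Rock (WRR) chickens. The 2 genes were chosen, out of 17934 gene IDs, because both stood far higher in XH than in WRR and because they are neighbours. The values below that show these facts are therefore a description with no test. The deposited tables give FBXO32 only by a protein accession, Q5ZHM6_CHICK, and the name FBXO32 for this gene ID comes from the study. Each of the 4 libraries was 1 pool, made from the breast muscles of 3 female birds aged 7 weeks, from the heavy or light end of the breed. XHh was the heavy Xinghua pool (birds averaging 305.8 g) and XHl the light Xinghua pool (207.6 g). WRRh was the heavy White Rock pool (1064.0 g) and WRRl the light White Rock pool (695.0 g). The birds carried no treatment or engineered allele, the heavy XH birds weighed less than the light WRR birds, and each breed came from its own supplier, so that breed, supplier and body size cannot be told apart.

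FBXO32, also called atrogin-1 or MAFbx, is the substrate-binding F-box subunit of an SCF ubiquitin ligase, which it joins through SKP1 and cullin 1. In mammals its RNA accumulates in skeletal muscle during fasting, denervation and glucocorticoid treatment, and FoxO transcription factors switch it on. Together with the RING finger ligase TRIM63 (MuRF1) it is a standard marker of muscle protein breakdown. KLHL38 is a Kelch-like protein. Members of that family carry a BTB domain and Kelch repeats, and many act as substrate adaptors of cullin 3 ubiquitin ligases. Less is known of what KLHL38 does in muscle.

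No other gene ID of the tables lies between the 2 genes. RefSeq annotation places a long noncoding RNA, LOC112531900, between them, and its level was not examined. FBXO32 spans 143695681 to 143720333 on chromosome 2 (24653 bp) and KLHL38 spans 143748478 to 143753282 (4805 bp), with a gap of 28.1 kb. The tables do not name the build of these positions, and whether they follow galGal4, the assembly named in the submitters' processing notes, was not established. The study lists several oligos for FBXO32, and its quantitative PCR primer pair is shown because the tables carry no symbol for this gene. The primers were not aligned to this locus. The qPCR values were not analysed here.
FBXO32 forward primer: ggcgacctcagcagcttttgtaa
FBXO32 reverse primer: cgctcttttgtgctccccttgt

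Values are FPKM, the number of sequenced fragments scaled to transcript length and to the mapped total of the library, so that levels of different genes can be compared. FBXO32 had 209 FPKM in XHh and 236 FPKM in XHl, against 23.9 FPKM in WRRh and 21.5 FPKM in WRRl. Both XH libraries were high, both WRR libraries were low, and the breeds did not overlap. In FPKM this was 8.72-fold higher in XHh than in WRRh and 11.0-fold higher in XHl than in WRRl. On the log2(FPKM + 1) scale, the differences between XH and WRR were 3.07 for the heavy and 3.40 for the light birds, with a mean of 3.23 ± 0.23 (SD of the 2 contrasts). Of all gene IDs ordered by level, FBXO32 ranked 355 in XHh and 317 in XHl, against 2870 in WRRh and 3201 in WRRl.

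KLHL38 had a lower level than its neighbour in every library, with the same split by breed. It had 30.1 FPKM in XHh and 33.9 FPKM in XHl, against 4.82 FPKM in WRRh and 2.99 FPKM in WRRl. This was 6.24-fold higher in XHh than in WRRh and 11.3-fold higher in XHl than in WRRl. The log2(FPKM + 1) differences between XH and WRR were 2.42 for the heavy and 3.13 for the light birds, with a mean of 2.77 ± 0.50 (SD of the 2 contrasts). The added 1 FPKM lowers these log2 values more for KLHL38 than for FBXO32, because KLHL38 is near that size in WRRl. By level KLHL38 ranked 2124 in XHh and 1992 in XHl, against 7770 in WRRh and 9264 in WRRl. In bulk tissue, fewer cells of a type and less RNA per cell cannot be told apart.

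**Figure D1:**
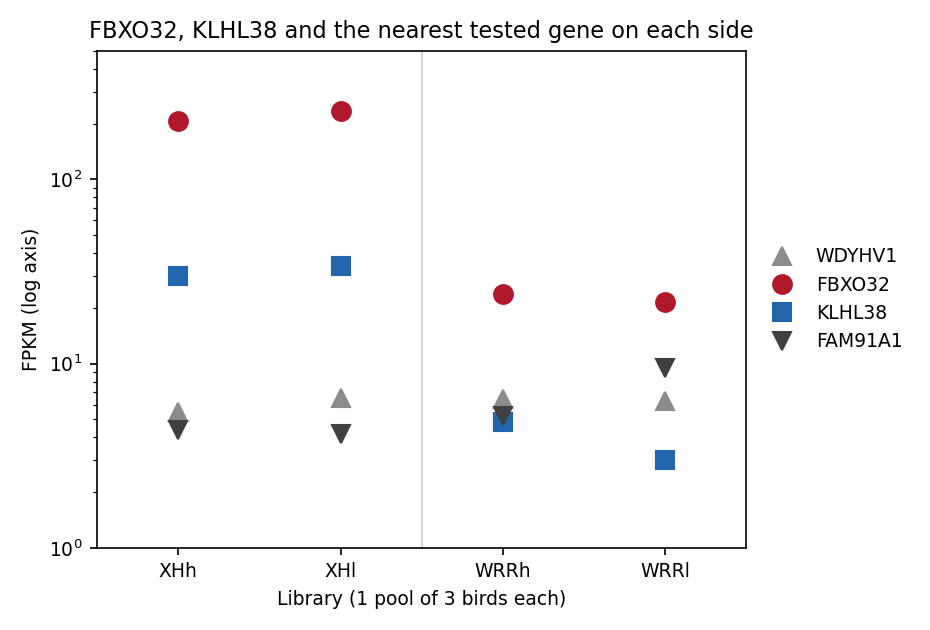
FPKM (log axis) of FBXO32, KLHL38 and the nearest tested gene on each side, WDYHV1 and FAM91A1, with 1 point per library and no error bars because each condition is 1 pool. FBXO32 sits at 209 and 236 FPKM in the XH libraries, against 23.9 and 21.5 FPKM in the WRR libraries, and WDYHV1 stays between 5.45 and 6.52 FPKM in all 4.

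Ordered by the mean difference between XH and WRR on the log2(FPKM + 1) scale, FBXO32 ranked 23 and KLHL38 ranked 34 among the 10669 genes that averaged 1 FPKM or more over the 4 libraries. In the same set, 88 genes were at least 2-fold higher in XH in both weight classes and above 0 in all libraries, which is 0.825% of the genes, and 14 were at least 4-fold higher. Both members belong to both groups, as their choice implies.

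The ratio of the 2 genes lay between 4.97 and 7.20 in the 4 libraries. FBXO32 had 6.94 times the FPKM of KLHL38 in XHh and 6.96 times in XHl, against 4.97 times in WRRh and 7.20 times in WRRl. WRRh was the lowest and the other 3 libraries lay close together. With 1 library per condition the counting error behind the WRRh ratio is unknown, since the tables hold no read counts.

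Among 7374 other genes that averaged 5 FPKM or more and had values above 0 in all 4 libraries, KLHL38 had the pattern most like that of FBXO32. The measure of likeness was the root mean square difference over the 4 libraries of log2(FPKM + 1) centred on each gene's own mean, and it was 0.27 between the pair. The next 5 genes for FBXO32 were H2B5 (0.31), a histone, UTS2R (0.38), a urotensin receptor, GLUL (0.41), glutamine synthetase, DKK2 (0.42), a secreted Wnt antagonist, and CHAC1 (0.43), an enzyme that breaks down glutathione. For KLHL38, DKK2 (0.19) and CHAC1 (0.20) were nearer than FBXO32 (0.27), which was next. After them came MYL2 (0.38), the slow and cardiac regulatory light chain of myosin, the unnamed ENSGALG00000023744 (0.38), and the histone H4 (0.40). Histone genes have near-identical copies, so their values are uncertain. GLUL and ENSGALG00000023744 overlap on chromosome 8, so reads may be shared between them, and the name GLUL comes from the study. All these genes are high in both XH libraries and low in both WRR libraries. With 4 libraries the order is a description of these pools.

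DKK2 had 8.51 FPKM in XHh and 11.6 FPKM in XHl, against 1.38 FPKM in WRRh and 0.726 FPKM in WRRl. CHAC1 had 277 FPKM in XHh and 409 FPKM in XHl, against 74.4 FPKM in WRRh and 42.3 FPKM in WRRl. Like FBXO32 and KLHL38, and unlike GLUL, both were higher in the light than in the heavy XH pool and lower in the light than in the heavy WRR pool. H4 ran the same ways, with 30.5 FPKM in XHh and 34.3 FPKM in XHl, against 8.39 FPKM in WRRh and 6.53 FPKM in WRRl. These genes were picked for likeness over the same 4 values, so the shared directions are a description. In WRR the DKK2 values lie near the added 1 FPKM.

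**Figure D2:**
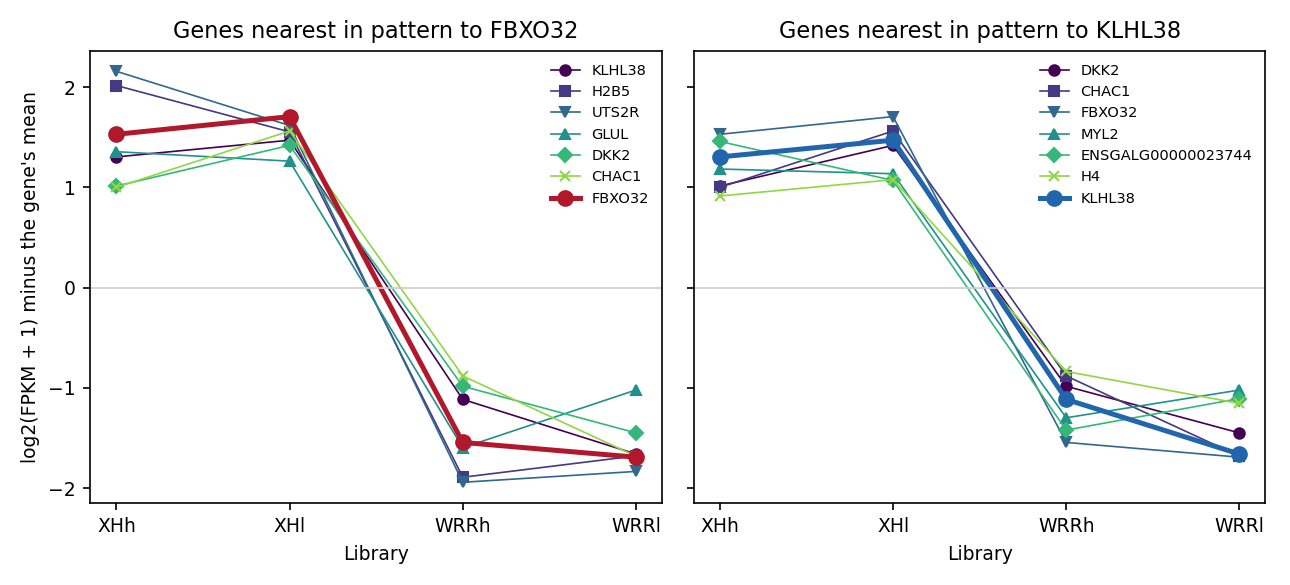
Level in each library as log2(FPKM + 1) minus the gene's own mean, for FBXO32 (left, thick red line) and KLHL38 (right, thick blue line) with the 6 genes nearest to each in pattern; lines only join the points of 1 gene. KLHL38 lies nearest to FBXO32, at a root mean square difference of 0.27, and DKK2 nearest to KLHL38, at 0.19.

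The difference between weight classes was not used to choose the genes and could be tested. The test was limma on log2(FPKM + 1), in a model of breed plus weight class, which takes the 2 breeds as replicates of a weight class and leaves 1 residual degree of freedom. The p-values measure only the spread between these 4 pooled libraries. FBXO32 differed between light and heavy birds by 0.014 (SE 0.14) on the log2 scale, with a limma adjusted p of 0.986. In FPKM it was 1.13-fold higher in XHl than in XHh, while WRRl stood at 0.899 of WRRh. KLHL38 differed by -0.19 (SE 0.22), with a limma adjusted p of 0.867. It was 1.13-fold higher in XHl than in XHh, while WRRl stood at 0.620 of WRRh. Neither gene passed the threshold of 0.05, and across all genes tested 6 did (0.0562%).

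The question of how far the breed difference reaches along the chromosome was asked with the other gene IDs within 500 kb. There were 18, with 9 before FBXO32 and 9 after KLHL38. Of these, 13 averaged 1 FPKM or more and were tested, 2 were listed at 0 in all 4 libraries, and 3 were low. These genes were taken by position alone, so their breed test is independent of the choice of the pair. Like all breed tests here, it came from the same limma fit and took the heavy and light pools as replicates of a breed. Each breed had 1 library per weight class. None of the 13 was called between XH and WRR by limma at an adjusted p under 0.05, against 4.75% of all genes tested (1.22% higher and 3.53% lower in XH). The lowest adjusted p was 0.111, and 3 of the 13 had an unadjusted p under 0.05, all lower in XH, beside 34.3% of all genes tested in either direction. Over all genes limma called 130 higher and 377 lower in XH, and 213 higher and 122 lower under median-of-ratios scaling. None of the 13 was 2-fold higher or 2-fold lower in XH in both weight classes, beside 0.825% and 4.12% of all genes tested. With only 13 genes and such small shares, these counts of 0 do not set the neighbours apart from other genes.

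The log2 differences between XH and WRR of the 13 tested neighbours ran between -0.61 and 0.24 with a median of -0.091, beside -0.24 over all genes tested. Under median-of-ratios scaling, which moves the median of all genes by 0.24, the neighbours' median was 0.16, beside -0.0014 over all genes. Of the 13, 4 were higher in XH in both weight classes, 6 were lower in both and 3 were mixed. These directions were not counted over all genes, whose median was itself below 0, so they do not set the neighbours apart. Between weight classes none of the 13 was called by limma, beside 0.0562% of all genes tested. None had an unadjusted limma p under 0.05, beside 619 of the 10669 genes tested. The log2 differences lay between -0.21 and 0.35. The highest difference of a neighbour within 1 weight class was 0.40 (TATDN1, light birds), beside 2.42 for the lowest of the pair (KLHL38, heavy birds).

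**Figure D3:**
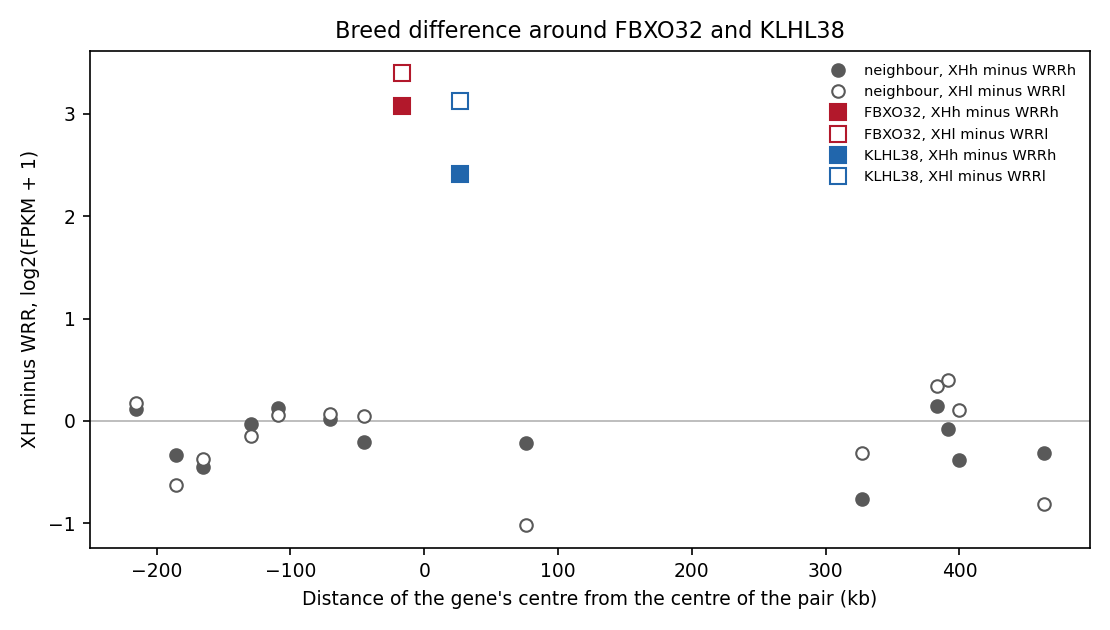
Difference between XH and WRR in log2(FPKM + 1) for the 13 tested neighbours (grey) and for FBXO32 (red) and KLHL38 (blue), against the distance of each gene's centre from the centre of the pair in kb; filled points are the heavy birds and open points the light birds. The pair stands between 2.42 and 3.40, and the limma estimates of the neighbours lie between -0.61 and 0.24.

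On the FBXO32 side the nearest gene was WDYHV1, an enzyme that removes the amide group of N-terminal glutamine, at 11.1 kb. It had 5.45 FPKM in XHh and 6.52 FPKM in XHl, against 6.44 FPKM in WRRh and 6.26 FPKM in WRRl. The breeds overlapped, and the limma difference was -0.077 (SE 0.16). Farther out, ENSGALG00000016373 (27.3 kb) had 4.48 FPKM in XHh and 5.35 FPKM in XHl, against 4.39 FPKM in WRRh and 5.06 FPKM in WRRl. ENSGALG00000016378 (78.8 kb) had 10.1 FPKM in XHh and 9.74 FPKM in XHl, against 9.16 FPKM in WRRh and 9.29 FPKM in WRRl. ENSGALG00000016380 (96.8 kb) had 9.08 FPKM in XHh and 8.84 FPKM in XHl, against 9.31 FPKM in WRRh and 9.92 FPKM in WRRl. In none of these 3 did the limma difference between the breeds exceed its SE.

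The farther tested genes on that side were WDR67, ENSGALG00000016386 and ENSGALG00000016390. WDR67 (124 kb), a WD repeat protein, had 1.63 FPKM in XHh and 1.99 FPKM in XHl, against 2.59 FPKM in WRRh and 2.87 FPKM in WRRl. ENSGALG00000016386 (149 kb) had 16.6 FPKM in XHh and 17.4 FPKM in XHl, against 21.1 FPKM in WRRh and 27.4 FPKM in WRRl. Both were lower in both XH libraries, and the limma difference of ENSGALG00000016386 was -0.48 (SE 0.14, adjusted p 0.111). ENSGALG00000016390 (185 kb), the farthest on that side inside the limit, had 8.85 FPKM in XHh and 9.36 FPKM in XHl, against 8.09 FPKM in WRRh and 8.16 FPKM in WRRl. The next ID on that side lay outside the limit, at 617 kb (ENSGALG00000016393), and was listed above 0 in WRRl alone, at 0.294 FPKM.

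On the KLHL38 side the first tested gene was FAM91A1, a protein of vesicle tethering at the Golgi, at 35.6 kb. It had 4.34 FPKM in XHh and 4.15 FPKM in XHl, against 5.18 FPKM in WRRh and 9.42 FPKM in WRRl. Its difference of -0.61 (SE 0.25, limma adjusted p 0.180) was the lowest of the neighbours, and WRRl stood apart. Without WRRh it was called lower in XH by limma, at -0.99 (SE 0.17, adjusted p 0.0448), in a fit that called 11.3% of all genes.

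ENSGALG00000016339 (283 kb) had 8.30 FPKM in XHh and 10.6 FPKM in XHl, against 14.8 FPKM in WRRh and 13.4 FPKM in WRRl, a difference of -0.54 (SE 0.17, limma adjusted p 0.123). ENSGALG00000016338 (353 kb) had 41.5 FPKM in XHh and 44.1 FPKM in XHl, against 37.5 FPKM in WRRh and 34.7 FPKM in WRRl. Its difference of 0.24 (SE 0.13, limma adjusted p 0.263) was the highest of the neighbours. TATDN1 (356 kb), a putative deoxyribonuclease, had 23.9 FPKM in XHh and 30.4 FPKM in XHl, against 25.3 FPKM in WRRh and 22.8 FPKM in WRRl. These breeds overlapped.

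NDUFB9 (369 kb), a subunit of respiratory complex I, was the most abundant neighbour. It had 269 FPKM in XHh and 290.3 FPKM in XHl, against 349.9 FPKM in WRRh and 269 FPKM in WRRl. It stood above FBXO32 in every library and its breeds overlapped. MTSS1 (375 kb), an actin-binding protein and the farthest inside the limit, had 5.90 FPKM in XHh and 4.04 FPKM in XHl, against 7.59 FPKM in WRRh and 7.82 FPKM in WRRl, a difference of -0.56 (SE 0.19, limma adjusted p 0.136). Just outside, at 569 kb, SQLE, the squalene epoxidase of sterol synthesis, had 0.651 FPKM in XHh and 1.45 FPKM in XHl, against 2.81 FPKM in WRRh and 4.25 FPKM in WRRl.

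The remaining 5 neighbours were listed at 0 or at low values. ENSGALG00000018087 and ENSGALG00000018086 were listed at 0 in all libraries, as was TNNC2, a fast muscle troponin, so a listed 0 may not mean that reads were missing. The gene nearest to KLHL38 on the far side, ENSGALG00000016360 (8.38 kb), was listed at 0 in XHh and had 0.120 FPKM in XHl, against 0.0913 FPKM in WRRh and 0.216 FPKM in WRRl. FAM83A had 0.0918 FPKM in XHh and 0.104 FPKM in XHl, and was listed at 0 in both WRR libraries. FER1L6, a ferlin, stayed between 0.0102 and 0.0458 FPKM. Scaled by the relative depth of the libraries, these low values came out within 5% of whole steps, and the largest was 3 steps (FER1L6 in WRRh). Differences between the breeds in these genes were not detectable at this depth.

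Other successive genes of the genome gave a measure of how often neighbours moved together. Among 10638 pairs of successive tested genes on 1 chromosome, 10 pairs had both genes at least 2-fold higher in XH in both weight classes, FBXO32 with KLHL38 being 1 of them. The others included SESN1 with FOXO3, 161 kb apart on chromosome 3, and ZFAND5 with ALDH1A1, 151 kb apart on chromosome Z. They also included closely spaced genes of 1 family, the histones H2B1 with H4 (3.30 kb) and H2B5 with H2B1 (3.32 kb), and AOX1 with AOX2P (4.12 kb). At 4-fold, 2 pairs remained, FBXO32 with KLHL38 and the overlapping GLUL with ENSGALG00000023744. Since the pair was chosen on these values, these counts are a description.

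Among 42 F-box genes, FBXO32 was the most abundant in both XH libraries and the 11th in both WRR libraries. The other 41 were found by symbols starting FBXO, FBXL or FBXW. The tables give 2804 gene IDs only by a protein accession, so F-box genes among those, and Kelch genes likewise, could not be ranked. In XHh and XHl the next highest was FBXW4, at 80.8 and 77.8 FPKM. In WRRh and WRRl FBXW4 was the highest, at 90.6 and 79.7 FPKM. FBXO40, an F-box protein of muscle that in mice targets IRS1, had 76.2 FPKM in XHh and 66.6 FPKM in XHl, against 72.1 FPKM in WRRh and 70.2 FPKM in WRRl. Of the 41 other F-box genes, 32 were tested, 1 was called higher in XH by limma and none lower, beside 1.22% higher and 3.53% lower over all genes tested, with a median difference of -0.12 (0.15 under median-of-ratios scaling). The gene called was FBXO30, known in mice as a ubiquitin ligase of muscle atrophy. It had 60.6 FPKM in XHh and 71.5 FPKM in XHl, against 26.6 FPKM in WRRh and 24.5 FPKM in WRRl, a difference of 1.33 (SE 0.15, limma adjusted p 0.0483, with 0.0184 to 0.236 over the alternatives).

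KLHL38 ranked 6 in XHh and 4 in XHl, against 23 in WRRh and 29 in WRRl, among 37 Kelch genes (symbols starting KLHL or KBTBD). The highest in every library were KLHL31 and KBTBD10 (also KLHL41), both muscle Kelch proteins, at 218 to 361 FPKM. Of the 36 other Kelch genes, 29 were tested, none was called higher in XH by limma and 1 was called lower, beside 1.22% higher and 3.53% lower over all genes tested, with a median difference of -0.12 (0.13 under median-of-ratios scaling). The gene called was KBTBD5 (also KLHL40), a Kelch protein of the thin filament. It had 20.4 FPKM in both XH libraries, against 61.2 FPKM in WRRh and 68.2 FPKM in WRRl, a difference of -1.62 (SE 0.13, limma adjusted p 0.0468, with 0.0145 to 0.236 over the alternatives). KLHL38 was below KBTBD5 in WRR and above it in XH.

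**Figure D4:**
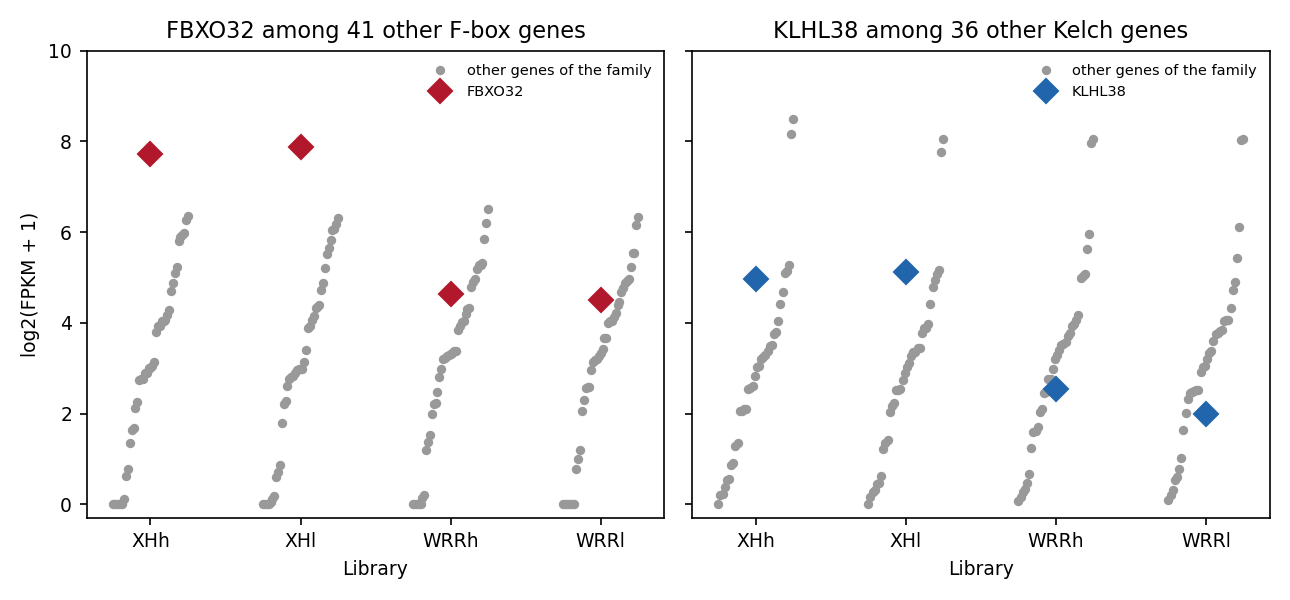
Level in log2(FPKM + 1) of FBXO32 among 41 other F-box genes (left) and of KLHL38 among 36 other Kelch genes (right) in each library, with 1 grey point for each other gene, spread sideways by rank. FBXO32 is the highest F-box gene in XHh and XHl and the 11th in WRRh and WRRl, and KLHL38 is the 6th and 4th Kelch gene in XHh and XHl, against the 23rd and 29th in WRRh and WRRl.

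F-box and Kelch proteins act with shared core subunits. Of 18 genes listed for the ligase core, 6 were found by name and tested, none was called by limma between the breeds in either direction, and 2 had an unadjusted p under 0.05. Over all genes tested, 4.75% were called and 34.3% had an unadjusted p under 0.05, so these counts do not set the list apart. SKP1, which links F-box proteins to cullin 1, had 104 FPKM in XHh and 114 FPKM in XHl, against 138 FPKM in WRRh and 122 FPKM in WRRl. RBX1, the RING subunit, had 148 FPKM in XHh and 156 FPKM in XHl, against 145 FPKM in WRRh and 104 FPKM in WRRl. Neither passed the threshold. CUL1 and CUL3 were not among the names matched.

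Of 27 genes listed as regulators of FBXO32 from work in mammals, 16 were tested, 1 was called higher in XH by limma and 2 lower, beside 1.22% higher and 3.53% lower over all genes tested. CEBPB, a bZIP transcription factor, had 159 FPKM in XHh and 139 FPKM in XHl, against 45.1 FPKM in WRRh and 62.8 FPKM in WRRl, a difference of 1.46 (SE 0.20, adjusted p 0.0483, with 0.0208 to 0.244 over the alternatives). SMAD3, which carries TGF-beta and myostatin signals, was lower in XH at -1.11 (adjusted p 0.0483 from limma). PRKAA2, a catalytic subunit of AMP-activated kinase, was lower in XH at -1.09 (adjusted p 0.0483 from limma). This list was chosen with earlier results of these data known, and the study reports CEBPB and FOXO3 as higher in XH. Its counts are therefore a description. The study also reports that FOXO3 knockdown in a chicken fibroblast line raised FBXO32 RNA, the reverse of the direction described in mammals. Regulation of FBXO32 by these genes was not tested here.

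FOXO3 lay just past the threshold on the other side. It had 92.7 FPKM in XHh and 90.9 FPKM in XHl, against 14.1 FPKM in WRRh and 30.8 FPKM in WRRl, a difference of 2.08 (SE 0.31, limma adjusted p 0.0542, with 0.0131 to 0.254 over the alternatives). KLF15, a factor induced by glucocorticoids, had 60.6 FPKM in XHh and 72.1 FPKM in XHl, against 28.4 FPKM in WRRh and 20.2 FPKM in WRRl (adjusted p 0.0512). FOXO1 had 25.1 FPKM in XHh and 20.2 FPKM in XHl, against 9.83 FPKM in WRRh and 16.0 FPKM in WRRl (limma adjusted p 0.138). FOXO4 stayed between 16.8 and 18.8 FPKM in all libraries. The median of the 16 was -0.067 (0.21 under median-of-ratios scaling).

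Of 21 tested genes of the atrophy programme, 6 were called higher in XH by limma and none lower, beside 1.22% higher and 3.53% lower over all genes tested, with a median of 0.10 (0.37 under median-of-ratios scaling) beside -0.24 (-0.0014) over all genes. FBXO32 and KLHL38 are left out of this count, and so is GLUL, which had 261 FPKM in XHh and 244 FPKM in XHl, against 32.9 FPKM in WRRh and 49.5 FPKM in WRRl, because only the study names it. TRIM63, the other standard ligase of muscle atrophy, had 1210.2 FPKM in XHh and 1127 FPKM in XHl, against 374 FPKM in WRRh and 373 FPKM in WRRl, a difference of 1.64 (SE 0.092, adjusted p 0.0380). PDK4 is a kinase that inhibits pyruvate dehydrogenase. It had 265 FPKM in XHh and 514 FPKM in XHl, against 19.0 FPKM in WRRh and 87.1 FPKM in WRRl. The difference was 3.14 (limma adjusted p 0.0483). The other 4 called were ZFAND5 (1.49), SESN1 (1.36), BNIP3 (1.13) and TRIM55 (0.85). The list was chosen with earlier results of these data known, and the study reports PDK4 as differing between the breeds. The count of 6 is therefore a description. Each call of a named regulator or atrophy gene was lost under at least 1 alternative, with adjusted p-values from limma as high as 0.320 for PRKAA2 and PDK4.

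**Figure D5:**
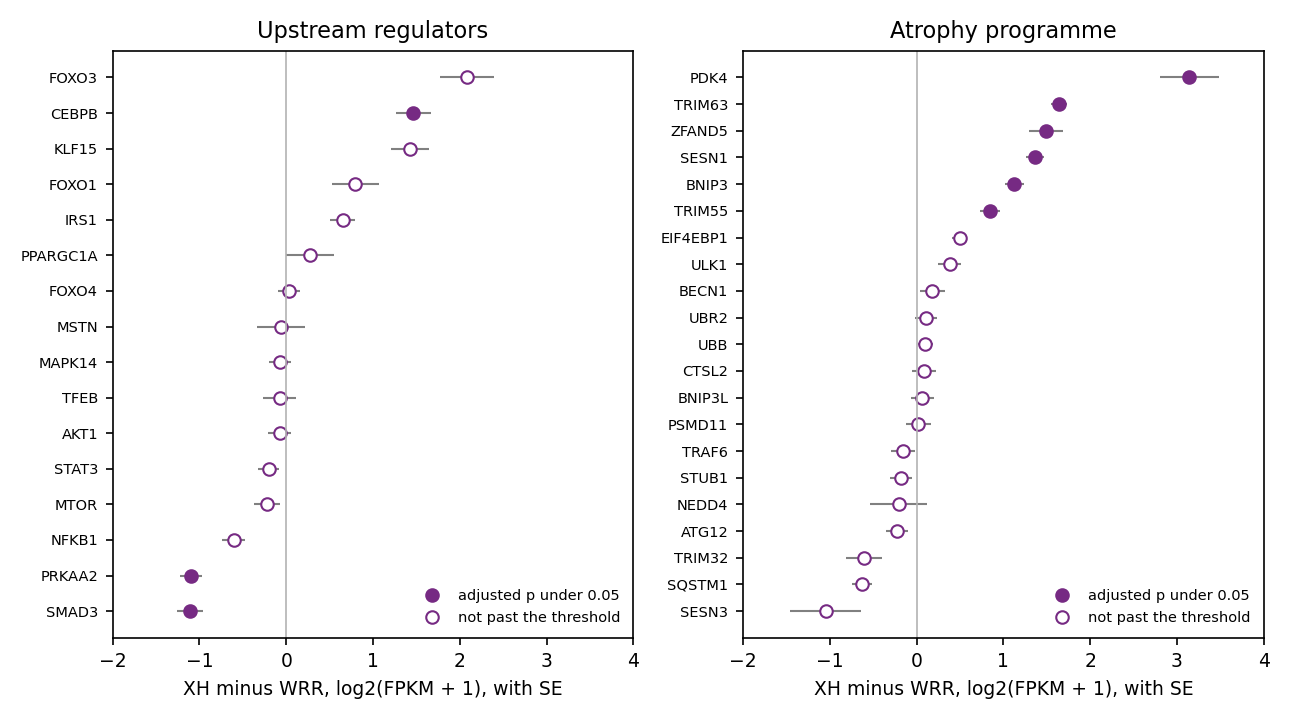
Difference between XH and WRR in log2(FPKM + 1), with the limma SE as bars, for the tested genes listed as regulators of FBXO32 (left) and as the atrophy programme (right); filled points have an adjusted p under 0.05. CEBPB is filled at 1.46 and TRIM63 at 1.64, and FOXO3 is open at 2.08.

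Of 6 proteins reported as FBXO32 targets in mammals, 2 had genes that were found by name and tested. Limma called 0 of them between the breeds, beside 4.75% of all genes tested, and 2 genes are too few to set the list apart. EIF3F, a subunit of translation initiation factor 3, had 141 FPKM in XHh and 152 FPKM in XHl, against 125 FPKM in WRRh and 129 FPKM in WRRl (limma adjusted p 0.269). CHMP2B ran the other way, with 25.6 FPKM in XHh and 24.1 FPKM in XHl, against 27.4 FPKM in WRRh and 28.1 FPKM in WRRl (limma adjusted p 0.426). MYOD1, the myogenic transcription factor, is named for its gene ID by the study alone and was not counted. It had 278 FPKM in XHh and 314 FPKM in XHl, against 119 FPKM in WRRh and 113 FPKM in WRRl. Its difference of 1.34 (SE 0.12, limma adjusted p 0.0479) passed the threshold. That call was lost under plain moderation (no trend or robust setting), where limma called 0 genes. RNA levels say nothing of the amount of these proteins.

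Markers of several other cell types were lower in XH, while some were not. Fast troponins TNNI2 and TNNT3 were among the highest genes everywhere, at 7304 to 10559.5 FPKM, while TNNC2 of the same list was listed at 0. TNNC1 of the slow and cardiac list was high too. It had 7354 FPKM in XHh and 4884 FPKM in XHl, against 8217 FPKM in WRRh and 8100 FPKM in WRRl. Of the 5 tested markers of that list, 2 were higher in XH in both weight classes and 3 lower. Limma called 1 of them higher in XH, beside 1.22% of all genes tested, and 0 lower. This was MYL2, with 31.8 FPKM in XHh and 30.7 FPKM in XHl, against 4.88 FPKM in WRRh and 6.12 FPKM in WRRl (limma adjusted p 0.0467). Summed levels of macrophage markers were 104 and 147 FPKM in XHh and XHl, against 241 and 574 FPKM in WRRh and WRRl (4 of 7 tested genes called lower in XH by limma, beside 3.53% of all genes tested). Summed B cell markers were 9.66 and 26.6 FPKM in XHh and XHl, against 139 and 460.5 FPKM in WRRh and WRRl, while T cell markers summed to 18.8 and 26.0 FPKM in XHh and XHl, against 69.5 and 127 FPKM in WRRh and WRRl. Fibroblast markers summed to 1147 and 923 FPKM in XHh and XHl, against 1862 and 2263 FPKM in WRRh and WRRl. Limma called 2 of 3 tested B cell, 2 of 6 T cell and 1 of 4 fibroblast markers lower in XH. Every marker call in this paragraph was lost under plain moderation, where limma called 0 genes. The B cell sum rested mostly on IGJ, at 7.61 and 24.4 FPKM in XHh and XHl, against 131 and 443 FPKM in WRRh and WRRl. All these sums were lower in both XH libraries, whereas the fast muscle markers summed to 20716 and 16797 FPKM in XHh and XHl, against 19048 and 18150.2 FPKM in WRRh and WRRl, and overlapped. Other markers gave no single direction. The endothelial TEK (difference 0.017) and the adipocyte ADIPOQ (0.0054) differed little between the breeds, and the macrophage LY86 overlapped. The adipocyte PLIN1 (-2.82) and the erythroid HBAD (-1.24) were lower in XH. The part of cell composition in the levels of FBXO32 and KLHL38 was not tested. XHl was 1.51 times and XHh 0.862 times as deep as WRRh, and WRRl was 0.845 times, as estimated from the steps of the lowest values.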

How the data were processed

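Per the study's methods, reads passed a quality filter before mapping with TopHat (version not given in the sources used here; at most 2 mismatches; Ensembl reference), and the authors deposited FPKM values for 17934 gene IDs in 4 tables, each pairing 2 libraries. The deposited tables also hold the authors' own fold changes, p-values and q-values from Cuffdiff, which were not used. Each library stands in 2 tables, and 69 gene and library pairs listed at 0 in only 1 of them took the value above 0. No read counts per gene are given, so the precision of single values is unknown. The study reports the mapped reads of each library, which were not used here. The relative depth of the libraries was instead estimated from the steps of the lowest values.

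Both factors entered 1 limma fit (version 3.58.1, R 4.3.3, trend and robust moderation) of log2(FPKM + 1), over 10669 genes averaging 1 FPKM or more, with Benjamini-Hochberg adjustment at 0.05. Tables and plots used Python 3.11.15 with pandas 2.3.3, numpy 2.4.6 and matplotlib 3.10.9. The members and lists were chosen with earlier results of these data known. Genes named in the text are the pair, every gene within 500 kb and the next outside, the 6 nearest in pattern to each member, and list members that limma called or that the design named. The genes called, the values of the pattern and the pairs of successive genes were described after they were seen. SESN1 with FOXO3, ZFAND5 with ALDH1A1, the histone pairs, AOX1 with AOX2P and the GLUL pair were picked after their values were seen. Gene names came from the tables (818 by their Swiss-Prot entry names), and 30 IDs were named by the study only and not counted in lists. Promoter and protein sequences were not analysed here. Alternatives changed the pseudocount, scaling, filter, moderation, window and libraries; 1, which kept only genes above 0 in all 4 libraries, was added after seeing the data.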

Additional observations from a re-analysis of the deposited data

Results flagged for a closer look

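The weight classes ran opposite ways in the breeds for both genes, and this difference between breeds was not tested. Low minus high birds gave 0.18 log2 units in XH and -0.15 in WRR for FBXO32. For KLHL38 they gave 0.17 in XH and -0.54 in WRR. Opposite signs were common, since they occurred in 44.4% of the 10669 genes tested and in 9 of the 13 tested neighbours.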

How the results depend on the processing

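The breed difference of FBXO32 was 3.23 log2 units, 3.51 under median-of-ratios scaling and 3.15 to 3.32 when each library was left out in turn. That of KLHL38 was 2.77, 2.06 with a pseudocount of 5 FPKM and 2.50 to 3.05 without 1 library, so it stayed above 2 log2 units throughout. The log2 ratio of FBXO32 to KLHL38 fell to 2.13 with a pseudocount of 5 and was 2.45 to 2.67 without 1 library. The weight difference of FBXO32 was -0.031 under median-of-ratios scaling. Leaving out 1 library gave weight differences of -1.68 to 1.71 for FBXO32, with -1.52 without WRRh and -1.68 without XHl, and of -1.75 to 1.38 for KLHL38, with 1.38 without WRRl and 1.02 without XHh. Those fits hold no breed term, so the breed left with 1 library weighs on 1 weight class only. Under the alternatives that kept all 4 libraries the count of called neighbours was 0, windows of 250 and 1000 kb included. Over all genes, limma called 0 with plain moderation, 9 with a pseudocount of 5, 11 with no filter and 12 with quantile normalization. In those settings a count of 0 neighbours was close to fixed in advance and carries no weight. Without WRRh the breed difference of FAM91A1 was -0.99.

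The list calls depended on the settings. With a pseudocount of 5, quantile normalization, no filter or plain moderation, limma called 0 F-box, 0 Kelch, 0 regulator and 0 atrophy genes. When genes had to average 5 FPKM it called 2 F-box genes and 5 regulators, with a pseudocount of 0.1 it called 2 Kelch genes and 5 regulators, and among genes above 0 in all 4 libraries it called 3 F-box genes, 3 Kelch genes and 7 regulators. Over all genes these fits called 13.4%, 6.2% and 17.4%, against 4.75% as reported. Each of these 4 lists also lost calls in some of the fits without 1 library. Those fits leave 1 library in a breed, so their counts are not compared here. Over all genes limma called 0 with plain moderation, 11 with no filter, 12 with quantile normalization, 9 with a pseudocount of 5, and 1807 among genes above 0 in all 4 libraries. The cause was not tested. No pairing of single birds between the groups is given. The main breed fit matched the pools by weight class through its model term. The promoter motif search was not run.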
